A study of Drosophila melanogaster with 8 samples.

Results

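The strongly male-biased genes of the white prepupa were 251 of the 11982 genes measured, or 2.09%. Each gene was represented by its brightest probe set that carried a single gene symbol, and a gene was taken when its log2 intensity in males exceeded that in females by 3 or more, averaged over both genotypes. A further 8 genes past this threshold were left out by name, because their symbols mark them as ribosomal or respiratory chain genes. The sex difference therefore chose the genes and is given below as a description, whereas the comparisons of the double mutant with wild type use contrasts that the choice did not use.

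RNA was measured on 8 Affymetrix arrays, each hybridised with RNA from a single whole white prepupa of Drosophila melanogaster, the stage at 0 hours after puparium formation. The 4 groups were bap170;bap180 double mutant males, wild type males, double mutant females and wild type females, with 2 animals in each. Wild type was the strain w1118. The labels name no alleles for the mutants, whose bap180 gene is now called polybromo. Bap170 and Polybromo are subunits found in PBAP, one form of the Brahma chromatin remodelling complex, and the study asked how development and transcription depend on them.

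In the larval and prepupal testis, male germ cells grow as primary spermatocytes and transcribe a large set of genes that are used only after meiosis, in the making of the sperm tail and the compaction of sperm chromatin. Many of the messages are stored and translated later in spermatids. In the fly, this set is switched on by spermatocyte forms of transcription factors, among them the products of aly, comr, topi, sa and can. Many genes of the set are young copies of broadly expressed genes, so that the germline carries its own forms of mitochondrial, proteasomal and cytoskeletal proteins. Because whole animals were measured, fewer germ cells and less RNA per germ cell cannot be told apart.

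The male-biased genes were bright in all 4 males and dim in all 4 females. Their median log2 intensity was 8.13 and 7.44 in the double mutant males and 8.43 and 8.40 in the wild type males. In females it was 4.18 and 4.11 in the double mutants, against 4.14 and 4.11 in wild type. These female medians lay below the medians of all probe sets on the same arrays, which ran from 4.80 to 4.87, and 241 of the 251 genes averaged under 5 in females. The lowest of the 1004 male values was 5.29 and the highest 11.81, so that every gene on every male array exceeded the array's own median of all probe sets, which was 5.05 to 5.13.

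**Figure D1:**
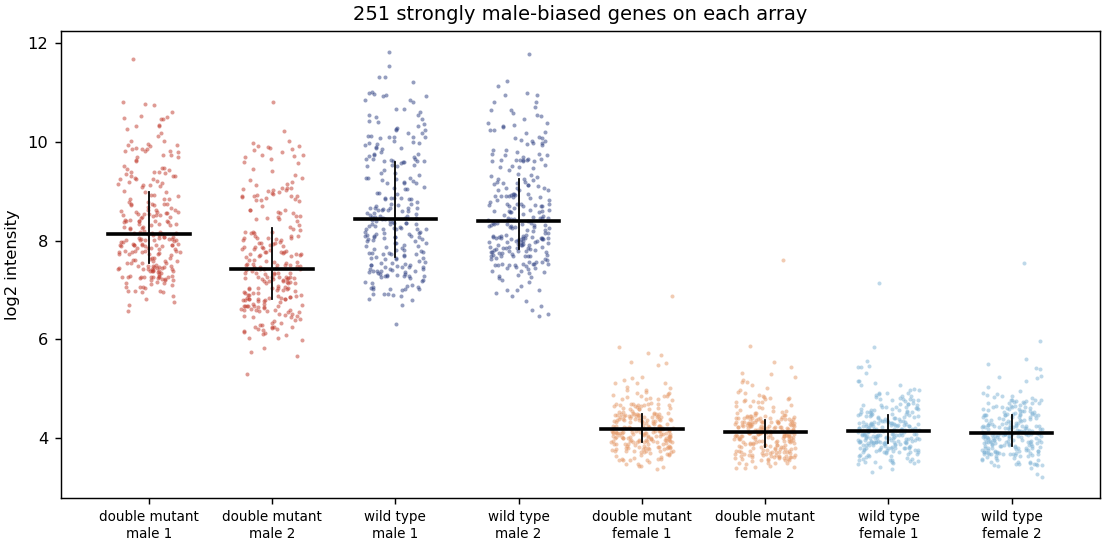
Log2 intensity (y axis) of the 251 male-biased genes on each of the 8 arrays (x axis, 1 animal each). Each point is a gene, the thick bar is the median and the thin line spans the quartiles. The medians are 8.13 and 7.44 in double mutant males, 8.43 and 8.40 in wild type males, and 4.11 to 4.18 in females.

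The male minus female difference had a median of 3.77, a 13.7-fold excess, and ran from 3.01 to 7.23, against a median of -0.11 over all genes. It was 5 or more for 48 genes, between 4 and 5 for 59 and between 3 and 4 for 144. All 251 genes had each of the 4 males above each of the 4 females, and the smallest gap between the lowest male and the highest female was 1.58. With limma at an adjusted p under 0.05, 8.09% of all 18769 probe sets were higher in males, and all 251 genes were among them, a count that the choice of the genes fixes. The median difference was 3.5 within the double mutants and 4.13 within wild type. Since background makes up much of a dim signal, the female values are close to a floor, and the fold differences between the sexes are compressed.

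The 4 genes taken as markers had the largest sex differences of the set. CG9920, a gene related to the small chaperonin subunit, had the largest sex difference at 7.23. Its log2 intensity was 10.81 and 10.22 in the double mutant males, 11.55 and 11.23 in the wild type males, and 3.66 to 3.83 in the 4 females. CG12699 reached 11.69 and 10.81 in the double mutant males and 11.81 and 11.78 in the wild type males, against 4.08 to 4.44 in females. TrxT, a germline form of the redox protein thioredoxin, had 10.51 and 9.74 in the double mutant males, 10.19 and 10.55 in the wild type males, and 3.36 to 3.62 in females. For ocn, a member of the janus and ocnus family of testis proteins, the values were 10.75 and 9.90 in the double mutant males, 11.22 and 10.95 in the wild type males, and 3.89 to 4.27 in females. For CG9920, CG12699 and ocn both double mutant males lay below both wild type males, as for 19.4% of all genes, whereas for TrxT the groups overlapped. None of the 4 was called in males (lowest limma adjusted p = 0.155), against 0.559% of all probe sets called lower.

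Of the 251 genes, 178 (70.9%) were known by a number alone, against 43.6% of all measured genes. The 10 largest sex differences included CG15219, CG31740, CG31988 and CG17376, at 6.18 to 6.51, together with S-Lap2 at 6.11 and the noncoding RNA lncRNA:CR9284 at 6.28. Of 248 genes with an entry in the RefSeq table of the Release 6 assembly, 245 were protein coding and 3 were long noncoding RNAs.

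The arrays matched their labels for genotype. Bap170 stood at 5.98 and 6.09 in the double mutant males, against 6.88 and 7.31 in the wild type males, a log2 difference of -1.06 ± 0.17 (SE, n = 2 each, limma adjusted p = 0.0425). Polybromo differed by -1.10 ± 0.18 in the same males (limma adjusted p = 0.0448). In females the differences of Bap170 and polybromo were -1.58 and -2.16. Replicates of a group correlated at r = 0.977 to 0.990 across all probe sets, with the lowest value for the double mutant males, and arrays of different groups at 0.912 to 0.979. Medians of 18 hybridisation controls were 8.92 and 9.02 in the double mutant males, against 9.34 and 9.43 in the wild type males and 9.30 to 9.44 in the 4 females. The 3′ minus 5′ difference of the control transcript Act5C, a measure of RNA integrity, was 0.54 and 0.29 in the double mutant males, against 0.43 and 0.67 in the wild type males. The part of these control differences in the results below was not tested.

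In males, the set was lower in the double mutants by a median of 0.64 on the log2 scale, or 1.56-fold, while the median difference of all genes was 0.02. The difference, double mutant minus wild type males, was below 0 for 244 of the 251 genes (97.2%), against 47.9% of all genes, and its quartiles were -0.86 and -0.43. On the arrays themselves, 160 of the 251 genes (63.7%) were lower in both double mutant males than in both wild type males, against 19.4% of all genes. Only CG7742 was higher in both double mutant males, with 8.17 and 7.93 against 7.36 and 7.43 in the wild type males (difference 0.65 ± 0.14, SE, n = 2 each, limma adjusted p = 0.116). Among all genes, 23.5% were higher without overlap. The remaining 90 genes of the set overlapped. A difference of -1 or beyond was reached by 29 of the 251 genes, against 2.09% of all genes.

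Few of these differences passed the test gene by gene. With limma, 2 of the 251 genes (0.797%) were called lower in the double mutant males at an adjusted p under 0.05, against 0.559% of all probe sets, a share near the background. None was called higher, against 0.49% of all probe sets. At an unadjusted p under 0.05, 115 genes of the set (45.8%) were lower and 1 was higher, against 5.54% and 7.6% of all probe sets. On simulated data, the same test at the same size recovered 0% of log2 changes of 0.5 and 50% of changes of 1. The changed probe sets were drawn at random from all probe sets. In double mutant males the median SD was 0.53 for the set and 0.15 over all genes, so these shares do not carry over to the set.

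The 2 genes called lower in double mutant males were CG31820 and CG31624, both on chromosome arm 2L. CG31820 had 8.60 and 8.16 in the double mutant males, against 10.02 and 9.60 in the wild type males, and fell by 1.43 ± 0.20 (log2, SE, n = 2 each, limma adjusted p = 0.0262). CG31624 had 8.04 and 7.77 in the double mutant males, against 8.86 and 9.33 in the wild type males, and fell by 1.19 ± 0.19 (log2, SE, n = 2 each, limma adjusted p = 0.0443). In both genes the groups were parted by more than the spread between animals. Both calls ended when any 1 of the 4 female arrays was left out, with adjusted p of 0.0677 to 0.104, and when double mutant male replicate 2 was left out, with 0.0823 for CG31820 and 0.162 for CG31624. The call of CG31624 also ended without double mutant male replicate 1 (adjusted p = 0.0567) or wild type male replicate 2 (0.0994), with the replicate number as a block (0.0755), with a variance trend (0.0674) and with array weights (0.0541), and that of CG31820 without wild type male replicate 1 (0.106).

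The 2 double mutant males did not differ from wild type by the same amount. Against the mean of the wild type males, the median of the set was -0.28 in double mutant male replicate 1, where 204 of the 251 genes were lower, and -1.0 in replicate 2, where 250 were lower. The medians of all genes on the same arrays were 0.02 and 0.02, with 47.6% and 48% of genes lower. Without replicate 1, limma called 51 of the 251 genes lower (20.3%, against 0.986% of all probe sets), and without replicate 2 it called none (0.32% of all probe sets). These settings leave the double mutant males with 1 animal, which is assumed to vary like the other groups. Without replicate 2, 163 of the 251 genes (64.9%) lay below both wild type males, against 31.6% of all genes. Leaving out an array can only raise such counts, so that of the set could not fall below the 160 found with all male arrays.

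**Figure D2:**
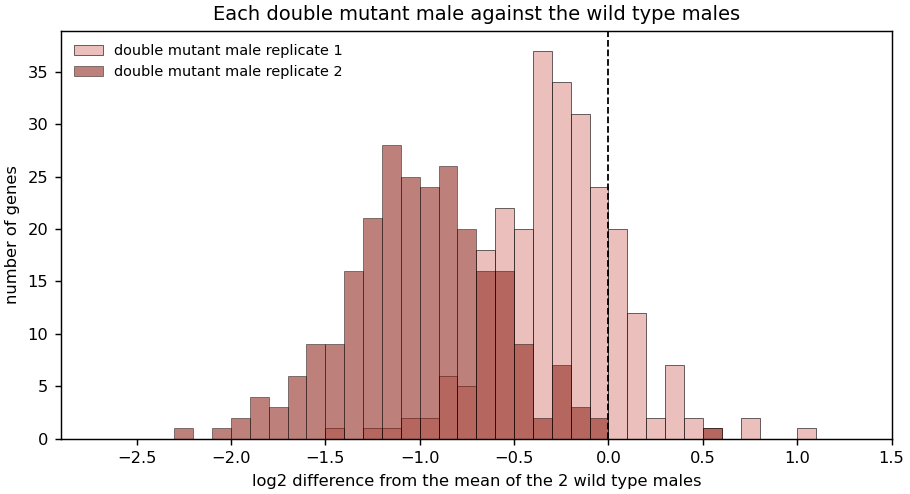
Number of male-biased genes (y axis) by log2 difference from the mean of the 2 wild type males (x axis), for double mutant male replicate 1 (light) and replicate 2 (dark); the dashed line marks 0. The medians are -0.28 for replicate 1 and -1.0 for replicate 2, and 204 and 250 of the 251 genes lie below 0.

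Median differences were also taken by strength of male bias, without a test between the bands. Among the 48 genes with a sex difference of 5 or more, the median genotype difference in males was -0.75, and 41 were lower without overlap. Among the 144 genes with a sex difference between 3 and 4, the median was -0.56 and 76 were lower without overlap. The 305 genes just outside the set, with a sex difference of 2 or more and under 3, had a median of -0.48, and 149 of them (48.9%) were lower without overlap, against 19.4% of all genes. In that outer band double mutant male replicate 2 again lay further down, at a median of -0.80 from the wild type males, against -0.16 in replicate 1.

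The 6 small Cys-Gly-Pro proteins of the sperm tail in the set were all lower in both double mutant males than in both wild type males. Their median difference was -0.87 and none was called, while over all features 19.4% of genes were lower without overlap and 0.559% of probe sets were called lower. They are cysteine-rich proteins whose messages are stored during meiosis. Mst84Da had 9.32 and 8.62 in the double mutant males, against 10.10 and 9.74 in the wild type males (difference -0.95 ± 0.25, SE, n = 2 each, limma adjusted p = 0.173). Mst98Cb had 8.78 and 7.90 in the double mutant males, against 9.60 and 8.94 in the wild type males (-0.93 ± 0.34, limma adjusted p = 0.313). Their family member Mst98Ca, one of the brightest genes of the set, differed least, with 10.60 and 10.01 in the double mutant males against 10.84 and 10.64 in the wild type males (-0.43 ± 0.24, limma adjusted p = 0.53). The wild type males themselves differed for Mst84Dd, which had 8.05 and 7.95 in the double mutant males, against 9.27 and 8.46 in the wild type males. Another gene of the family, Mst87F, fell outside the set at a sex difference of 2.52, with 7.09 to 8.04 in females. It had 10.04 and 9.35 in the double mutant males, against 10.28 and 10.29 in the wild type males (difference -0.59 ± 0.27, limma adjusted p = 0.416).

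The 4 genes of sperm chromatin had differences of -0.78 to -0.48, and none was called, against 0.559% of all probe sets called lower. ProtA encodes a protamine, which replaces histones in the sperm head, Mst77F encodes a linker-histone-like protein of the same chromatin, and tHMG1 and tHMG2 encode HMG box proteins of the spermatid stage. ProtA had 9.31 and 8.04 in the double mutant males, against 9.53 and 9.20 in the wild type males. For tHMG1 the values were 9.82 and 8.91 in the double mutant males, against 10.10 and 10.20 in the wild type males. Its neighbour tHMG2 had 9.08 and 7.95 in the double mutant males, against 8.84 and 9.14 in the wild type males. The groups parted for tHMG1 and Mst77F and overlapped for ProtA and tHMG2, where only double mutant male replicate 2 was clearly below the other 3 males.

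Of 7 genes of the axoneme and its motors, 2 were lower without overlap, a share near the 19.4% of all genes, and the median difference was -0.44 with none called (0.559% of all probe sets were called lower). betaTub85D, the beta tubulin of the male germline, had 10.19 and 9.88 in the double mutant males, against 10.98 and 10.59 in the wild type males (difference -0.75 ± 0.19, SE, n = 2 each, limma adjusted p = 0.156). Dnaaf6, an assembly factor for axonemal dynein, had 9.26 and 8.45 in the double mutant males, against 9.65 and 9.61 in the wild type males. These 2 were the genes without overlap. The dynein light chain genes Cdlc2 and robl62A, the assembly factor gene Zmynd10, the kinesin gene Klp59D and Sdic3, a sperm dynein intermediate chain gene with near-identical copies beside it, all overlapped, with differences of -0.52 to -0.04.

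**Figure D3:**
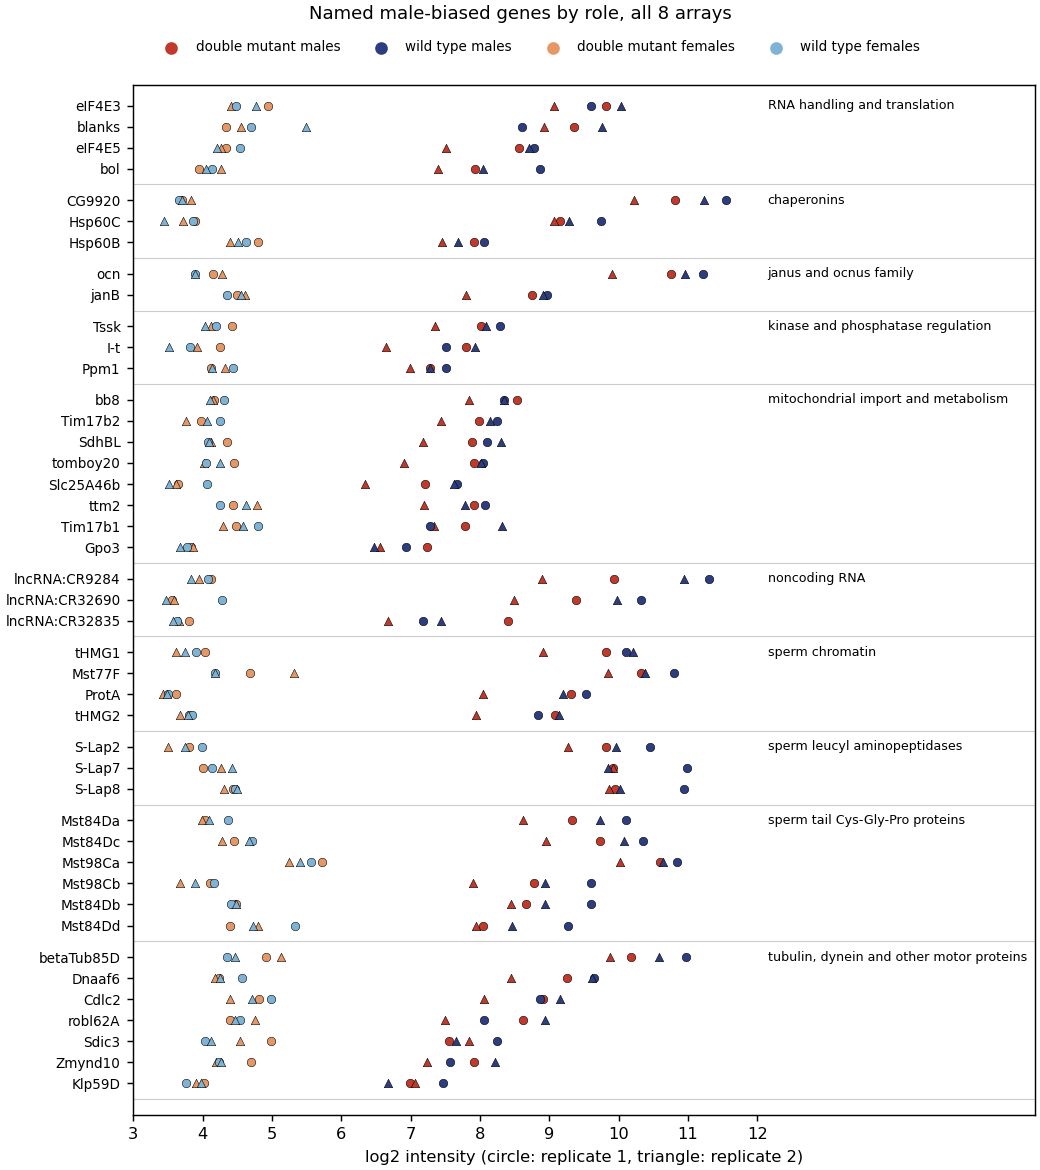
Log2 intensity (x axis) of 43 named male-biased genes (rows) on all 8 arrays, grouped by what their products are known to do. Colours mark the 4 groups, circles are replicate 1 and triangles replicate 2. All male points lie to the right of all female points, and all 6 sperm tail proteins have both double mutant males below both wild type males.

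The sperm leucyl aminopeptidases, which form a large share of the protein of the mature sperm, followed another pattern among animals. S-Lap7 had 9.92 and 9.93 in the double mutant males, against 10.98 and 9.85 in the wild type males. S-Lap8 had 9.95 and 9.87 in the double mutant males, against 10.95 and 10.02 in the wild type males. For both, wild type male replicate 1 was about 1 log2 unit above the other 3 males, which lay close together. S-Lap2, with 9.82 and 9.26 in the double mutant males against 10.46 and 9.96 in the wild type males, did not show this. Of the 3 genes, 2 were lower without overlap, against 19.4% of all genes, and none was called, against 0.559% of all probe sets called lower (lowest limma adjusted p = 0.326).

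Germline copies of mitochondrial genes had sex differences of 3.01 to 4.08. Of 8 genes, 4 were lower without overlap, against 19.4% of all genes, and none was called, against 0.559% of all probe sets called lower. The lowest was Slc25A46b, of the mitochondrial carrier family, with 7.20 and 6.34 in the double mutant males, against 7.66 and 7.62 in the wild type males (difference -0.88 ± 0.30, SE, n = 2 each, limma adjusted p = 0.279). SdhBL, the germline copy of a succinate dehydrogenase subunit, had 7.89 and 7.17 in the double mutant males, against 8.10 and 8.30 in the wild type males. At the other end, Gpo3, a copy of the mitochondrial glycerophosphate oxidase, had 7.24 and 6.56 in the double mutant males, against 6.93 and 6.47 in the wild type males, a difference of 0.20 ± 0.25 (limma adjusted p = 0.835). The 8 genes left out by name, among them COX4L and ATPsynGL, which encode germline copies of respiratory chain and ATP synthase subunits, had differences of -1.17 to -0.28 in the same males, and none was called. The 3 chaperonin genes CG9920, Hsp60C and Hsp60B differed by -0.87, -0.41 and -0.19.

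Of 7 genes for RNA handling and for kinase or phosphatase regulation, 4 were lower without overlap, against 19.4% of all genes, and none was called, against 0.559% of all probe sets called lower. bol encodes Boule, an RNA-binding protein needed for entry into the meiotic divisions, and had 7.92 and 7.40 in the double mutant males, against 8.87 and 8.04 in the wild type males. eIF4E5, a germline form of the cap-binding initiation factor, had 8.57 and 7.51 in the double mutant males, against 8.77 and 8.71 in the wild type males. blanks, which encodes a double-stranded RNA-binding protein of the testis, had 9.35 and 8.92 in the double mutant males, within the 8.61 and 9.75 of the wild type males. The kinase gene Tssk had 8.01 and 7.35 in the double mutant males, against 8.29 and 8.09 in the wild type males. In these 4 genes the groups parted for bol, eIF4E5 and Tssk, and the limma adjusted p was 0.323 or higher. The janus and ocnus genes janB and ocn were both lower without overlap, by 0.67 and 0.76 on the log2 scale.

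The widest range within a named group was that of the 3 noncoding RNAs. lncRNA:CR9284 had 9.93 and 8.90 in the double mutant males, against 11.31 and 10.94 in the wild type males, and its difference of -1.71 ± 0.32 was the largest of the set, although it did not pass the test (SE, n = 2 each, limma adjusted p = 0.0797). lncRNA:CR32690 had 9.38 and 8.49 in the double mutant males, against 10.32 and 9.98 in the wild type males (-1.21 ± 0.35, limma adjusted p = 0.213). lncRNA:CR32835 went with neither, at 8.40 and 6.67 in the double mutant males, on both sides of the 7.17 and 7.44 of the wild type males (0.23 ± 0.48, limma adjusted p = 0.92). Outside the named groups, CAH13, a carbonic anhydrase gene, had nearly equal double mutant males at 7.20 and 7.27, against 8.25 and 7.92 in the wild type males (-0.85 ± 0.15, limma adjusted p = 0.0593).

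The genes were chosen for being high in males, and in females 241 of the 251 averaged under 5, close to background, so that a genotype difference in females could hardly be measured. The median difference, double mutant minus wild type females, was 0.02, against -0.04 for all genes, and 119 of the 251 genes were below 0. With limma, none of the 251 genes was called, against 0.32% of all probe sets higher and 0.623% lower. At an unadjusted p under 0.05, 3 genes of the set were higher (1.2%, against 3.59% of all probe sets) and 0 lower (against 5.35%). The 3 were Mst77F, betaTub85D and Sdic3, named after their values were seen. Mst77F had 4.68 and 5.31 in the double mutant females, against 4.17 and 4.18 in the wild type females (difference 0.82 ± 0.26, SE, n = 2 each, limma adjusted p = 0.347). Values without overlap were lower for 37 genes (14.7%, against 23.4% of all genes) and higher for 53 (21.1%, against 17.3%).

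Averaged over both sexes, the median difference of the set was -0.32, and limma called none of the 251 genes, against 1.32% of all probe sets higher and 1.47% lower. The count was 26 without double mutant male replicate 1, 1 and 2 without wild type male replicates 1 and 2, and 1 with the replicate number as a block. At an unadjusted p under 0.05, 47 genes were lower (18.7%, against 6.51% of all probe sets) and 0 higher (against 6.78%). The difference between the sexes in the genotype effect was fitted as an interaction, males minus females. With the females close to background, it largely repeats the male difference of these genes. Its median in the set was -0.68, against 0.08 over all genes, and 239 of the 251 genes were below 0. No gene of the set was called by limma, nor was any probe set (0% in each direction), and the lowest adjusted p in the set was 0.545. At an unadjusted p under 0.05, 53 genes of the set were lower (21.1%, against 2.15% of all probe sets) and 1 higher (0.398%, against 4.16%).

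The 2 double mutant males differed from each other almost throughout the set. Replicate 2 was below replicate 1 for 242 of the 251 genes, with a median difference of -0.75, whereas all genes had a median of -0.01 and 51.2% below 0. Between the wild type males, replicate 2 was below replicate 1 for 141 genes and above for 110, with a median of -0.05. The median SD of the set was 0.53 in double mutant males and 0.22 in wild type males, while over all genes it was 0.15 in double mutant males and 0.19 in wild type males. In females the median SD of the set was 0.12 in both genotypes. CG30192 had the largest gap, with 7.21 and 5.29 in the double mutant males, against 7.08 and 7.52 in the wild type males.

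The genes were also divided by how the wild type males differed. The 37 genes at least 0.5 higher in wild type male replicate 1 had a median replicate 2 minus replicate 1 difference of -0.35 in the double mutant males. For the 25 genes at least 0.5 higher in wild type male replicate 2 it was -0.78, and for the 189 genes between it was also -0.78. Across the 251 genes, the 2 replicate differences had a Pearson r of -0.42 and a Spearman rho of -0.42, against a Pearson r of -0.14 over all genes. These describe 4 animals, and genes measured on the same arrays are not independent. The gene salto had the highest of these differences in the double mutant males and cocoon in the wild type males. The values of salto were 8.85 and 9.15 in the double mutant males, against 10.19 and 9.22 in the wild type males, and those of cocoon were 6.70 and 6.62 in the double mutant males, against 7.39 and 8.83 in the wild type males.

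**Figure D4:**
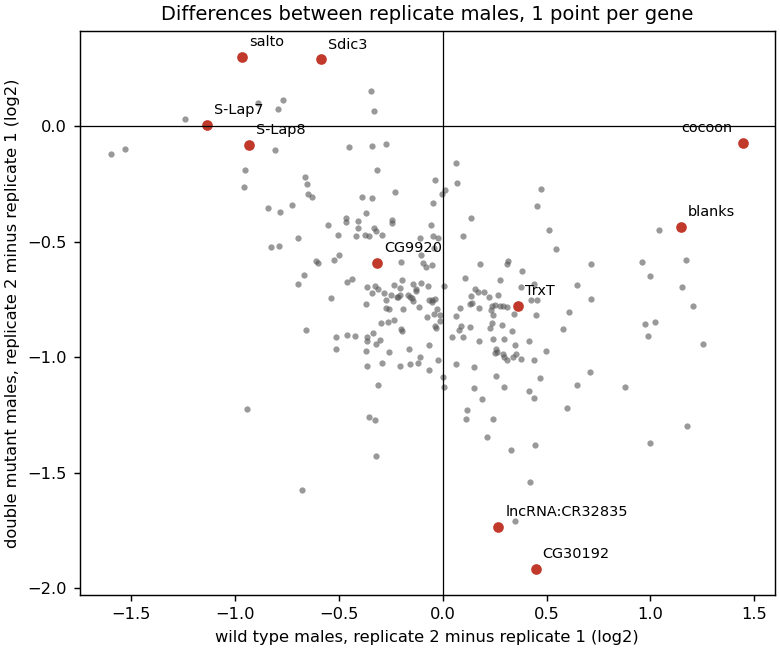
Replicate 2 minus replicate 1 (log2) of the double mutant males (y axis) and of the wild type males (x axis), 1 point per male-biased gene, with several genes named in red and lines at 0. The double mutant difference lies below 0 for 242 of 251 genes, with a median of -0.75, while the wild type difference is spread on both sides of 0, with a median of -0.05.

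The regulators of the spermatocyte programme were looked at separately. All 10 that were left out by name were measured, and none had a sex difference of 3 or more. The highest were sa at 2.24 and vis at 2.09. Sa is one of the testis forms of the general transcription machinery, and had 6.74 and 5.96 in the double mutant males, against 5.52 and 6.98 in the wild type males. The median difference of the 10 in males was 0.06, and 1 was called higher, vis, against 0.49% of all probe sets called higher. It encodes a homeodomain protein with a near-identical neighbouring copy, achi. vis rose by 2.65 ± 0.23 in double mutant males, with 8.11 and 7.85 against 5.01 and 5.64 in the wild type males (log2, SE, n = 2 each, limma adjusted p = 0.00499). The rise was not confined to males. Double mutant females had 5.26 and 5.53, against 3.83 and 3.61 in the wild type females (difference 1.68 ± 0.23, limma adjusted p = 0.0284).

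Wider lists, written around functions of the male germline with earlier results of these data known, also hold genes without male bias. In the order below, 18 of 20, 8 of 19 and 8 of 18 measured genes had a sex difference of 1 or more. For the lists after these it was 7 of 9, 1 of 11 and 4 of 5. Among the rest were gammaTub37C at -0.34 and cort at -0.09. The counts below stand beside the 19.4% of all genes that were lower without overlap in males. They also stand beside the 0.559% of all probe sets called lower and the 0.49% called higher. Of 20 measured genes for sperm chromatin and sperm tail proteins, 12 were in the set, 14 were lower in males without overlap and none was called. Of 19 measured cytoskeleton and axoneme genes, 3 were in the set, 7 were lower without overlap and none was called. Of 18 measured metabolic and redox genes, 3 were in the set and 9 were lower without overlap. Not all of the 18 were male-biased: Idh3g, Men-b and Sod3 had sex differences of -0.13, 0.05 and -0.06. From this list, 1 gene outside the set was called lower in males, Fum3, a copy of fumarase with a difference of -1.13 (limma adjusted p = 0.0173). Of 9 genes for translation and RNA handling and 11 for meiosis and the cell cycle, 2 and 1 were in the set. Lower without overlap were 1 and 4 of them, and none was called in males. The gene bol stands in both lists. Of 5 measured leucyl aminopeptidases, 3 were in the set, 3 were lower without overlap and none was called. The 5 include grsm, which was bright in both sexes, at 10.36 to 11.19 (sex difference -0.12).

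Markers of other cell types were measured beside the set. None of the 4 measured of 5 early germ cell markers was called in males, and their summed linear intensity was 118 to 130 in double mutant males and 119 to 124 in wild type males. These sums hold genes that parted in opposite directions without being called: aub was at 5.31 and 5.53 in double mutant males, against 4.90 and 4.93 in wild type males, and bgcn at 5.93 and 5.42 in double mutant males, against 6.0 and 6.10 in wild type males. The germ cell gene vas was dim on every array, at 3.51 to 3.70. Summed intensities of 5 of 6 gonad soma markers were 249 to 367 in double mutant males and 252 to 328 in wild type males. Of these, tj and upd1 were dim on every array, at 4.06 to 4.67, so that eya, zfh1 and CadN made up most of the sums. In whole animals, the signal of such genes need not come from the gonad. For the fat body they were 32084.5 and 35958.7 in double mutant males and 35472.6 and 33984.1 in wild type males (2 of 5 markers measured), for muscle 586 and 421 in double mutant males and 911 and 324 in wild type males (1 of 3), and for neurons 707 and 606 in double mutant males and 433 and 662 in wild type males (3 of 3). None of these markers was called in males. The fourth early germ cell marker, bam, had 4.16 and 4.14 in double mutant males, against 3.69 and 3.77 in wild type males. It was called higher averaged over both sexes (limma adjusted p = 0.025), as were 1.32% of all probe sets. It read 3.55 to 4.38 on the 8 arrays, below the median of all probe sets on each, and no fold is given for it.

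The set was spread over the large chromosomes. Chromosome assignments came from the RefSeq table of the Release 6 assembly, which lists 248 of the genes and 11651 other measured genes. Chromosome arm 2L carried 67 of the 248 genes (27%, against 18.4% of the other genes), and the X chromosome 25 (10.1%, against 15.9%). Arms 2R, 3L and 3R carried 50, 44 and 62, at 20.2%, 17.7% and 25%, against 20.4%, 19.7% and 25% of the other genes. None lay on chromosome 4 or Y, which held 0.558% and 0.0601% of the other genes. The median genotype difference in males was -0.84 for the genes on the X and between -0.66 and -0.58 for those on the other 4 arms. These shares are descriptions without a test.

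**Figure D5:**
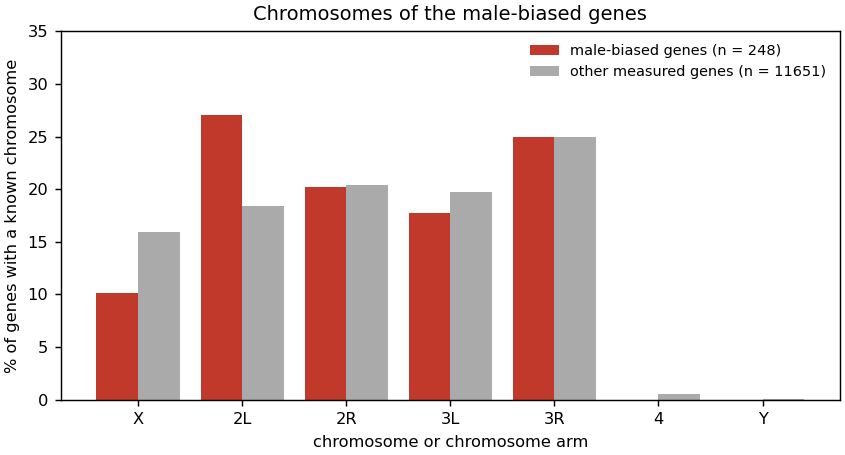
Share of genes (y axis, %) on each chromosome or chromosome arm (x axis) for the 248 male-biased genes and 11651 other measured genes with a known chromosome. The male-biased genes reach 27% on 2L and 10.1% on X, against 18.4% and 15.9% of the other genes.

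Genes of the set often lay next to each other. A directly neighbouring gene was also in the set for 38 of the 248 genes (15.3%), whereas 281 of the 11651 other genes (2.41%) had a neighbour in it. There were 17 such runs. The longest held 4 genes, the sperm tail genes Mst84Dd, Mst84Dc, Mst84Db and Mst84Da on 3R. The runs of 3 were CG18449, CG2127 and CG8701 on 2R and glob2, sowi and CG15177 on 3R. Pairs included ocn with janB, tHMG1 with tHMG2, Mst98Ca with Mst98Cb, and CG31624, called above, with CG31988. Several of these are family members, which probes may not fully part.

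A few genes of the set were also well above background in females. CG14995 had the highest female values, at 6.88 to 7.61, with 10.33 and 9.92 in the double mutant males, against 10.93 and 10.47 in the wild type males. Pof, whose product binds the fourth chromosome, had 5.84 to 5.97 in females, and 9.45 and 8.86 in the double mutant males, against 9.76 and 9.66 in the wild type males. Mst98Ca, CG8701 and CG33340 were next, at 5.17 to 5.73 in females. In all, 16 of the 251 genes averaged above the mean of the female array medians, 4.83.

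At the edge of the set, the values had no gap. Just inside were CG15631, Ppm1, Gpo3, CG15124 and CG12674, with sex differences of 3.02 to 3.01, and just outside CG30324, Porin2, CG31294, ProtB and CG5565, at 3.0 to 2.98. ProtB, the second protamine gene, thus fell outside while ProtA was inside. ProtB had 6.97 and 5.70 in the double mutant males, against 7.76 and 7.13 in the wild type males. A threshold of 2.5 gave 379 genes and one of 3.5 gave 163.

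For 14 of the genes the array carried 19 further probe sets, which did not all share the male bias. Their sex differences ran from -0.24 to 6.63, with 3 at 3 or more and 12 under 1. bol, for example, had 2 further probe sets near background on all arrays, at 3.52 to 3.95. CG17376 had another probe set with 10.60 and 9.85 in the double mutant males, against 10.88 and 11.12 in the wild type males. Of the 251 probe sets, 16 were of a design type whose probes can match transcripts of several genes, so that near-identical copies are not parted there.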

How the data were processed

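Gene expression was measured on 1-colour Affymetrix arrays, 8 in all, each with RNA of 1 animal, so that replicates are animals. The deposited values are intensities on a linear scale, which the authors obtained with RMA (background correction, normalization across arrays, 1 value per probe set), as the submitters' processing notes say. Which RMA software was used, and whether values were rescaled after it, is not stated. The genes and gene lists were chosen with earlier results of these data known, and the role groups after the values were seen.

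Intensities were taken to log2. Of 18952 probe sets, 183 controls were left out, and 18769 were tested with limma 3.58.1 (R 4.3.3) using lmFit and eBayes over all 8 arrays with 1 mean per group, no variance trend (residual degrees of freedom 4, prior 3.03) and Benjamini-Hochberg adjustment over all probe sets. The platform annotation gave 1 symbol for 13647 probe sets, several for 402 and none for 4720; 103 with 1 symbol had no match in the RefSeq table of Release 6. Genotype contrasts within each sex, their mean and their interaction are orthogonal to the sex difference of the rule. A value without overlap means that both arrays of one group lay beyond both of the other. Two-sided p-values are used throughout; an exact permutation test of 2 arrays against 2 could not pass 0.05. Standard errors come from the fit, and the number of arrays limits the precision.

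Genes were named by rule: the 4 markers, the 10 largest sex differences, the 5 on each side of the threshold, called genes, members of the lists (up to 8 each), the 5 largest and smallest differences between the double mutant males, and the 5 brightest in females and in males. Members of the role groups, lncRNA:CR32690 among them, and CG7742 were added after their values were seen. The male contrast was tested on simulated data of 18769 probe sets, 200 of them changed: 98% of log2 changes of 2 were recovered, and 5 calls out of 129 were false. Other settings tried were 2 scalings, 2 minimum levels, variance trends, 1 probe set per gene, the replicate block, array weights, other thresholds and the omission of each array. Chromosome arms and neighbouring genes were taken from the same RefSeq table; no coordinates are given, and promoter and protein sequences were not analysed here.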

Additional observations from a re-analysis of the deposited data

How the results depend on the processing

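The members were 379 at a threshold of 2.5 and 163 at 3.5, and 212 to 293 when 1 array was left out. At the threshold of 3, the rule gave 195 members with each array centred on its median and 249 after quantile normalization. The results below keep the 251 members. The median genotype difference in males of these 251, -0.64, was -0.62 after centring and -0.74 after quantile normalization. It ran from -1.0 without double mutant male replicate 1 to -0.28 without replicate 2. The members lower in males without overlap, 160 of 251, were 165 after centring and 190 after quantile normalization. They were 163 to 239 when 1 male array was left out, which can only raise this count. The array omissions and scalings of this count were chosen after seeing the data. The members called in males, 2, were 4 with a robust variance trend and 1 with array weights, and 0 to 51 when 1 array was left out: 51 without double mutant male replicate 1, 4 without wild type male replicate 2, and 0 without double mutant male replicate 2 or any female array. Averaged over the sexes, the count of 0 became 26 without double mutant male replicate 1 (range over omitted arrays 0 to 26). Array weights came out equal for the 2 animals of each group, so they could not set 1 replicate below the other. Leaving out an array removes residual degrees of freedom and moves the group mean it belonged to. Other causes were not tested. Of 18 settings, CG31820 lost its call under 6 and CG31624 under 10. The other 50 named genes had no call to lose; 17 of their results passed the threshold under a setting, and no named gene that was called changed direction.

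The labels do not say whether replicate numbers mark a shared day or batch, and deviations of same-numbered arrays correlated at r = -0.30 to 0.41 between groups (-0.18 for the males), so the numbers were not taken to pair the animals. With the replicate number as a block, 3 members were called in males (1 of them among the 2 without it) and 1 averaged over the sexes; with the double mutant male numbers crossed, a choice made after seeing the data, 3 and 0. Dim female values, close to background, and 2 animals per group limit what can be told.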
